A study of Sus scrofa with 12 samples.

Results

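The HOX genes of the pig endometrium were taken as every gene whose name in the expression table is HOXA, HOXB, HOXC or HOXD followed by digits alone. The rule found 36 of the 20674 genes of the table, 11 in the HOXA cluster on chromosome 18, 8 in HOXB on chromosome 12, 9 in HOXC on chromosome 5 and 8 in HOXD on chromosome 15 of the assembly Sscrofa11.1. Poly(A) RNA of endometrium was sequenced from 12 Landrace × Yorkshire sows of matched parity at the end of 114 days of gestation feeding, 3 sows in each of 4 dietary groups. Crude fiber was low in L − N and in L + N (3.73%) and high in H − N as well as H + N (7.46%, from soybean bran and beet pulp in place of part of the corn), and the groups written + N also received 0.05% N-carbamylglutamate (NCG, an analog of the activator of arginine synthesis). The questions were which HOX clusters and positions were expressed in this tissue, and whether their transcripts differed between the diets.

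HOX genes encode homeodomain transcription factors that stand in a row on the chromosome, and their number gives their place in that row. In the embryo, low numbers are used towards the head and high numbers towards the tail, and along the female reproductive tract HOXA9, HOXA10, HOXA11 and HOXA13 are known for the oviduct, the uterus, the lower uterus and cervix, and the vagina. In the adult uterus, HOXA10 and HOXA11 are known as progesterone- and estrogen-responsive factors of the stroma that are needed for implantation.

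Library totals lay between 14369781 and 19309724 counts. Markers of epithelium (CDH1, EPCAM, KRT8), of stroma (COL3A1, DCN, LUM) and of endothelium (PECAM1) were all measured, and so were markers of smooth muscle. The tissue is taken from the label, since these markers alone cannot tell endometrium from other parts of the uterus. Of 6 markers of trophoblast, a tissue of the conceptus, 4 were in the table and 2 had a mean of at least 1 FPKM. The trophoblast markers summed to 2.91 to 7.12 FPKM over the libraries, and CYP19A1, an enzyme of the conceptus, was near 0. Levels are given as FPKM, the reads of a gene scaled by its length and by the library total. Replicate 1 of L − N stood apart in smooth muscle markers, with a summed level of 2759 FPKM against 395 to 953 in the other 11 libraries, so the differences from L − N called for named genes are also given without it. In bulk tissue, fewer cells of a type and less RNA per cell cannot be told apart.

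HOX transcripts in the endometrium came mainly from the HOXA and HOXB clusters, and from every part of the rows but the last positions. Of the 36 genes, 21 had a mean of at least 1 FPKM over the 12 libraries, and these were 10 of 11 HOXA genes, 6 of 8 HOXB genes, 5 of 8 HOXD genes and 0 of 9 HOXC genes. HOXA held 54.5% of the summed HOX level, HOXB 29.4%, HOXD 14.9% and HOXC 1.27%. HOXB4, HOXB9 and HOXD4 are not among the 36 genes, so these shares and the counts by cluster and position leave them out. The summed level of all HOX genes ranged from 149 to 266 FPKM between libraries.

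By place in the row, 6 of 8 genes at positions 1 to 3 reached a mean of 1 FPKM, as did 9 of 13 at positions 4 to 8 and 6 of 9 at positions 9 to 11. At positions 12 and 13, the tail end of the clusters, 0 of 6 genes did. The highest member of these last positions was HOXA13, at 0.790 ± 0.481 FPKM (SD, n = 12). The next HOXA gene of the table towards the front, HOXA11, lay at 47.5 ± 19.9 FPKM (SD, n = 12).

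**Figure D1:**
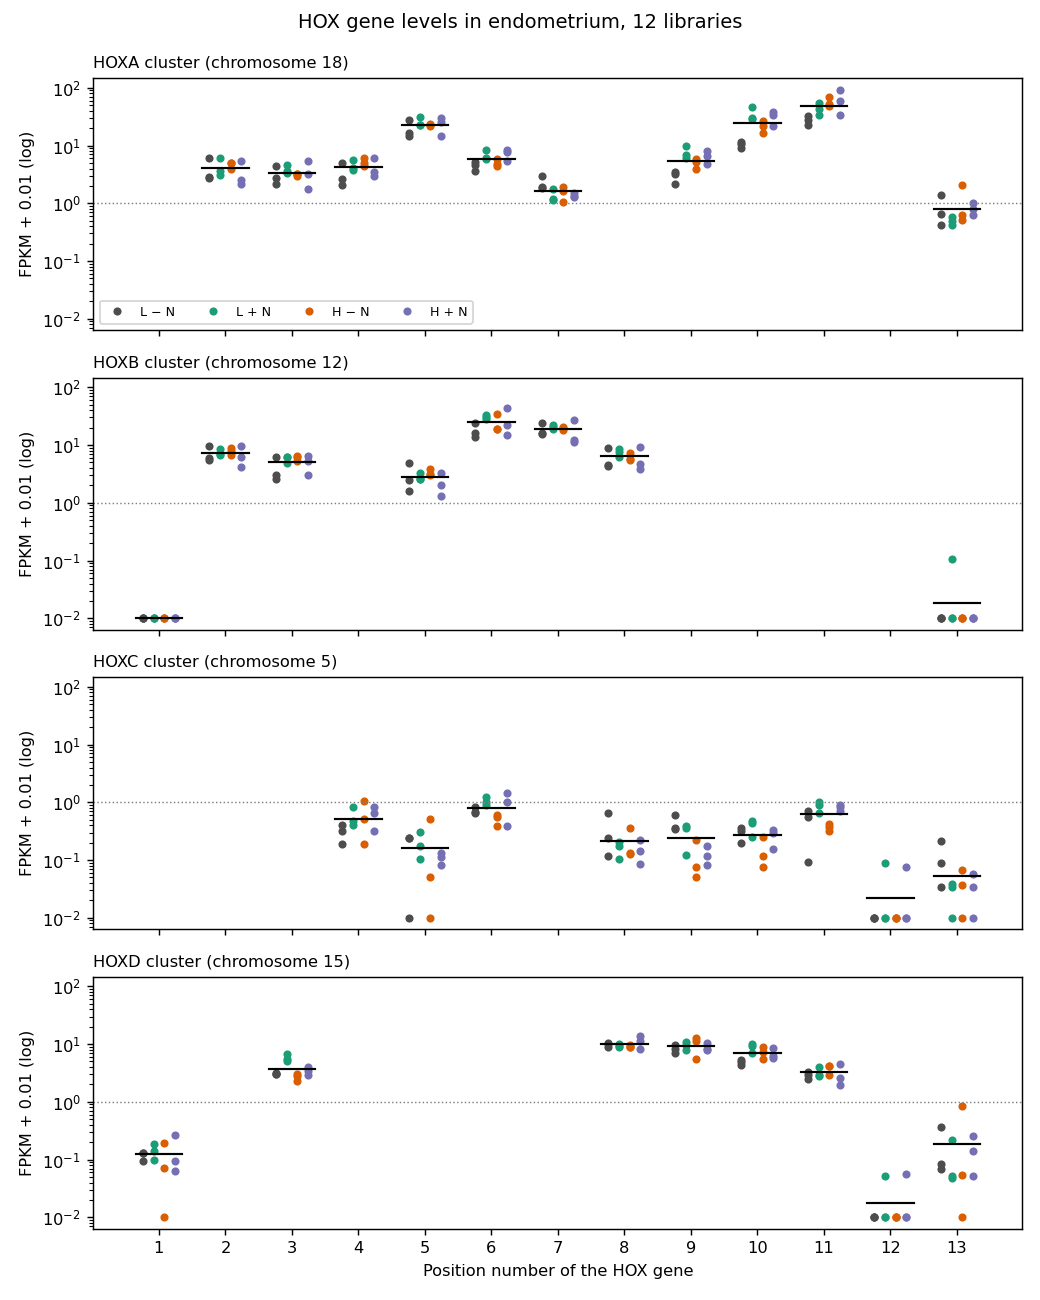
Level of each HOX gene (FPKM + 0.01, logarithmic axis) against its position number, for the genes reported, with a panel for each cluster and 1 point per library, colored by diet. Short black lines are means over the 12 libraries and the dotted line marks 1 FPKM. HOXA genes from position 2 to 11 and HOXB genes from position 2 to 8 have means above the line, every HOXC mean lies below it, and levels fall off at positions 12 and 13.

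HOXA11 was the most abundant HOX transcript, above 93.9% of all genes of the table. It was followed by HOXB6 at 25.0 ± 9.40, HOXA10 at 24.5 ± 11.5, HOXA5 at 22.7 ± 5.44 and HOXB7 at 18.8 ± 4.52 FPKM (SD, n = 12). HOXA11 was the highest HOX gene in 10 of 12 libraries, HOXA5 led in replicate 1 of L − N and HOXB6 in replicate 2 of H + N. Among the 19 pairs of neighbours in the order of the 20 highest genes, 16 differed by less than the larger SD of the pair. The exceptions were HOXA11 above HOXB6, HOXB7 above HOXD8 and HOXB5 above HOXA7.

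Below these came HOXD8 at 9.84 and HOXD9 at 9.09, then HOXB2 at 7.25, HOXD10 at 6.91, HOXB8 at 6.35, HOXA6 at 5.86, HOXA9 at 5.49 and HOXB3 at 5.15 FPKM. Under these were HOXA4, HOXA2, HOXD3, HOXA3, HOXD11, HOXB5 and HOXA7, from 4.23 down to 1.62 FPKM. HOXD8 varied least over the libraries, with a coefficient of variation of 14.5%, and HOXA10 was among the more variable ones at 46.9%.

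The members that share a position number in different clusters are paralogs, the copies left by duplication of an ancestral cluster. At position 11, HOXA11 at 47.5 FPKM stood above HOXD11 at 3.22 and HOXC11 at 0.614. At position 10, HOXA10 at 24.5 FPKM stood above HOXD10 at 6.91 and HOXC10 at 0.264. At position 9 the order was another, with HOXD9 at 9.09 FPKM above HOXA9 at 5.49 and HOXC9 at 0.233.

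The HOXC cluster was low in this tissue. Its 2 highest members were HOXC6 and HOXC11. HOXC6 was at 0.827, 0.681 and 0.630 FPKM in L − N, at 1.02, 1.24 and 0.889 in L + N, at 0.538, 0.598 and 0.381 in H − N and at 1.44, 1 and 0.384 in H + N. HOXC11 was at 0.539, 0.703 and 0.0812 FPKM in L − N, at 0.882, 0.648 and 1.02 in L + N, at 0.416, 0.358 and 0.304 in H − N and at 0.901, 0.825 and 0.699 in H + N. For both, the mean was higher with NCG than without it on either diet, and neither passed the test for NCG (adjusted p = 0.175 and 0.139, edgeR quasi-likelihood test with Benjamini-Hochberg adjustment).

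HOXB1 had 0 counts in all 12 libraries, and a count of 0 allows up to 3 counts in a library. HOXB13, HOXC12, HOXC13, HOXD1 and HOXD12 had under 10 counts in every library. Another 3 members, HOXC5, HOXC8 and HOXC9, also had too few counts for the test, so that 27 of the 36 genes were tested. HOXA13 and HOXD13, the genes of the tail end that did pass, were both highest in replicate 3 of H − N, with 2.05 and 0.843 FPKM. In both genes replicate 1 of L − N came next, with 1.36 and 0.359 FPKM, and the other libraries lay at 1.01 and 0.249 FPKM or below.

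Some HOX genes share parts of their span. HOXA3 spans HOXA4, HOXA5 and HOXA6, HOXA5 overlaps HOXA6, and HOXD9 spans HOXD10 and overlaps HOXD11, all on the same strand. Reads of these 7 genes can thus fall on more than 1 of them, and their levels carry that uncertainty. HOXA3 also overlaps the uncharacterized gene LOC110257526 on the opposite strand. HOXA9, HOXA10 and HOXA11 overlap no other gene of the table.

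Against L − N, transcripts of HOXA10 and HOXA9 were higher in L + N and in H + N, and no HOX gene was differentially expressed in H − N. Differential expression means here an adjusted p below 0.05 and an absolute log2 fold change above 1, over 15351 genes tested in the edgeR quasi-likelihood test. Among the 27 HOX genes tested this held for 2 in L + N (3.99% of all genes tested, 3.32% for higher levels alone) and for 2 in H + N (3.58% of all genes, 2.29% for higher levels alone). In H − N it held for 0 by edgeR and by DESeq2 (2.91% of all genes), with an unadjusted p under 0.05 for 4 (24.4% of all genes). All 3 comparisons share the libraries of L − N, and a count of 2 is too small to set the HOX genes apart from the background. The median log2 fold change of the 27 genes was 0.25 in L + N, then 0.12 with H + N and 0.17 with H − N, beside −0.02, 0.02 and 0.03 over all genes tested.

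HOXA10 (gene 100620451, chr18:45393525-45403259, plus strand), the HOX factor best known for uterine receptivity, gave the largest differences of the HOX genes in L + N and in H + N. In L − N its level was 9.19, 11.5 and 10.8 FPKM. In L + N it was 29.9, 28.2 and 45.9 FPKM, in H − N 26.4, 21.8 and 16.2 FPKM, and in H + N 37.8, 21.8 and 34.3 FPKM. Every library of the other groups was thus above every library of L − N, and the lowest of L + N was above the highest of H − N, a difference that was not among the comparisons tested. The group means in the same order were 10.5 ± 1.17, 34.7 ± 9.75, 21.5 ± 5.09 and 31.3 ± 8.39 FPKM (SD, n = 3).

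In L + N, HOXA10 was 3.02-fold higher than in L − N, with a log2 fold change of 1.60 (SE 0.259, adjusted p = 0.00825 in edgeR). In H + N it was 2.88-fold higher, with a log2 fold change of 1.52 (SE 0.258, adjusted p = 0.0158). In H − N the log2 fold change of 0.97 (SE 0.255, adjusted p = 0.0514) fell just short of both thresholds. DESeq2 gave 0.95 for H − N, which passed the adjusted p (0.00668) but not the fold threshold. The fitted folds are smaller than the ratios of the FPKM means because the scaling factors of the count test were 0.941 to 0.995 in L − N and up to 1.07 elsewhere. Without replicate 1 of L − N, the log2 fold change was 1.49 in L + N and 1.42 in H + N, and both were still called (adjusted p = 0.0131 and 0.0156 in edgeR), while in H − N it was 0.86 (adjusted p = 0.0768). The call in H + N was lost without replicate 3 of L − N (adjusted p = 0.0734) and without replicate 1 of H + N (adjusted p = 0.0592), while that in L + N was kept in all 12 fits that left out a library.

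**Figure D2:**
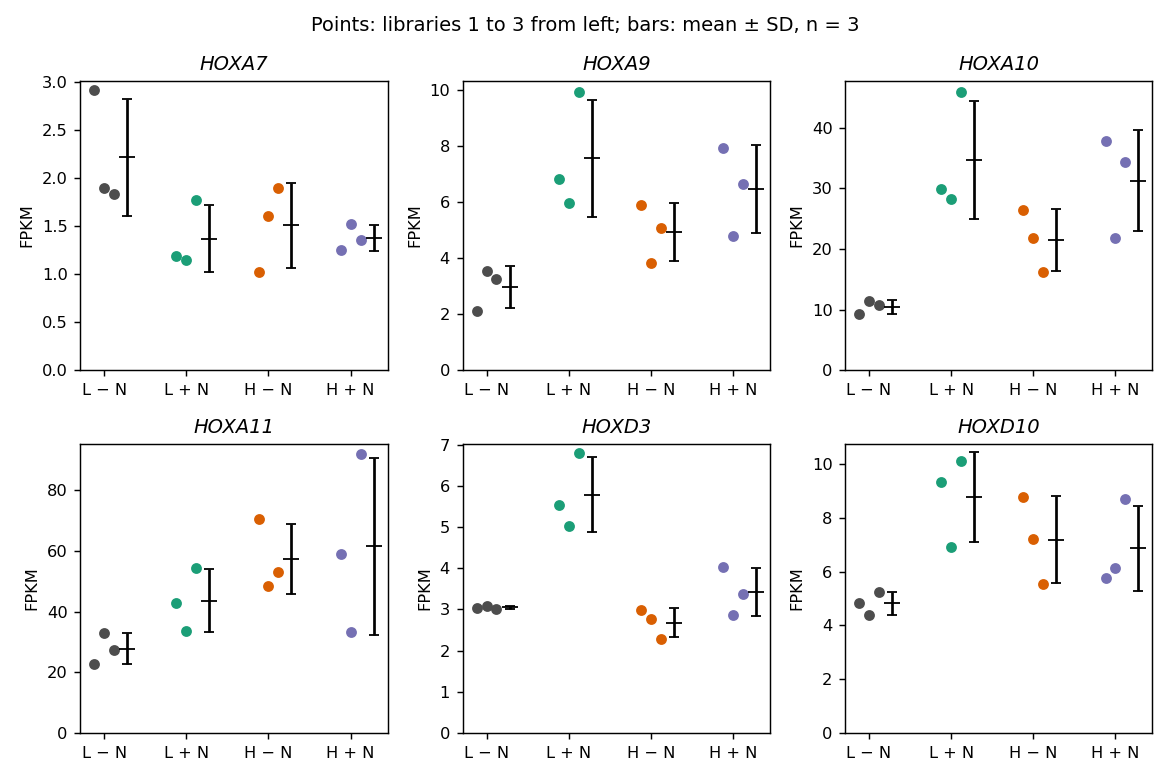
Level (FPKM, linear axes from 0) in each of the 4 dietary groups, in panels for HOXA7, HOXA9, HOXA10, HOXA11, HOXD3 and HOXD10, with points for the libraries and bars for the mean ± SD of 3 libraries. In the panel of HOXA10 the 3 points of L − N, at 9.19 to 11.5 FPKM, lie below all points of the other groups.

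HOXA9 (gene 100519066, chr18:45404594-45411512, plus strand) lies next to HOXA10 in the row and moved with it. Its level was 2.12, 3.53 and 3.27 FPKM in L − N, 6.83, 5.96 and 9.94 in L + N, 5.89, 3.84 and 5.08 in H − N, and 7.93, 4.81 and 6.65 in H + N. Here too, all libraries of the other groups lay above those of L − N. The log2 fold change was 1.21 in L + N (SE 0.281, adjusted p = 0.0233 in edgeR) and 1.06 in H + N (SE 0.280, adjusted p = 0.0440), while in H − N it was 0.67 (SE 0.279, adjusted p = 0.169). The call in H + N held under 7 of 17 alternatives and was lost without replicate 1 of L − N (log2 fold change 0.85, adjusted p = 0.0742). Without that library it was 1.004 in L + N (adjusted p = 0.0429) and 0.46 in H − N (adjusted p = 0.315). The call in L + N held under 14 of 17, and was lost without replicate 3 of L − N, replicate 2 of L + N or replicate 3 of L + N.

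HOXA11 (gene 100521236, chr18:45388523-45392190, plus strand), the neighbour on the other side of HOXA10, had its higher group means on the high-fiber diet. The test of fiber over both NCG levels did not pass for HOXA11 (adjusted p = 0.121 in edgeR). In DESeq2 that test passed the adjusted p (0.0262) but not the fold threshold (log2 fold change 0.77). The level of HOXA11 was 22.9, 33.0 and 27.4 FPKM in L − N, 42.8, 33.6 and 54.3 in L + N, 70.4, 48.6 and 53.1 in H − N, and 59.1, 33.4 and 91.9 in H + N. L − N did not overlap the other groups, although 33.4 FPKM in H + N and 33.6 in L + N were next to the 33.0 of L − N. The log2 fold change against L − N was 1.10 in H + N (SE 0.333, adjusted p = 0.0631 in edgeR), 0.98 in H − N (SE 0.332, adjusted p = 0.103) and 0.52 in L + N (SE 0.331, adjusted p = 0.335), none of which passed. For H − N, DESeq2 gave an adjusted p of 0.0381 at a log2 fold change of 0.97, under the fold threshold. The value in H + N passed without replicate 2 of H + N (log2 fold change 1.40, adjusted p = 0.0208) and in DESeq2 (adjusted p = 0.0142). The log2 fold change in H + N fell to 0.65 without replicate 3 of H + N (adjusted p = 0.197 in edgeR), and without replicate 3 of L − N the adjusted p was 0.167. Without replicate 1 of L − N the log2 fold change was 0.96 in H + N (adjusted p = 0.119), 0.84 in H − N (adjusted p = 0.170) and 0.38 in L + N (adjusted p = 0.526).

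No other HOXA gene passed the test against L − N. HOXA5, the third of the abundant HOXA genes, had log2 fold changes between 0.16 and 0.25 in the 3 comparisons with L − N. HOXA6 had 0.48 in L + N (adjusted p = 0.123 in edgeR) and 0.59 in H + N (adjusted p = 0.0685). HOXA7, which stands between HOXA6 and HOXA9, had negative values, −0.81 in L + N (adjusted p = 0.168), −0.73 in H + N (adjusted p = 0.209) and −0.59 in H − N (adjusted p = 0.331). It is named after its values were seen, for its direction against HOXA9, with 1.19, 1.14 and 1.77 FPKM in L + N against 2.91, 1.89 and 1.83 in L − N. Without replicate 1 of L − N its log2 fold change in L + N was −0.60 (adjusted p = 0.334 in edgeR). HOXA13, at the tail end, had −0.83 in L + N (adjusted p = 0.368), −0.04 in H + N (adjusted p = 0.970) and 0.39 in H − N (adjusted p = 0.709).

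**Figure D3:**
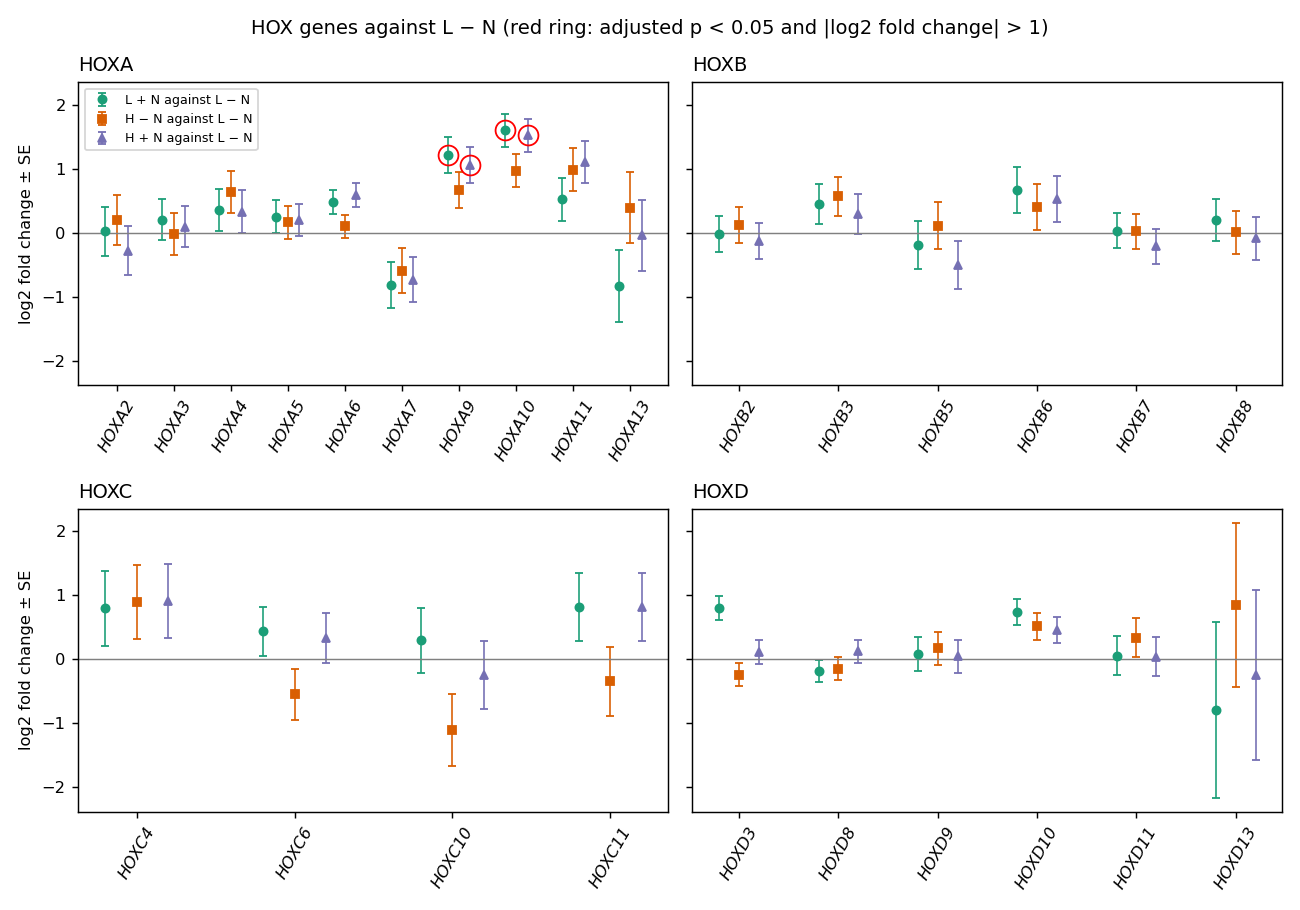
Log2 fold change against L − N with its SE for the tested HOX genes reported, in 1 panel per cluster, for the 3 other groups. A red ring marks an adjusted p below 0.05 with an absolute log2 fold change above 1. The rings fall on HOXA9 and HOXA10 in L + N and H + N, and most other genes lie within 1 log2 unit of 0.

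In the HOXB cluster, 0 of 6 tested genes were differentially expressed in any comparison. HOXB6, the second most abundant HOX gene, was at 23.9, 14 and 16 FPKM in L − N, 31.1, 33.5 and 28.2 in L + N, 19.2, 19.1 and 34.2 in H − N, and 21.8, 44.6 and 14.9 in H + N. L + N lay above L − N without overlap, while H − N and H + N overlapped it and had a wide spread. The log2 fold change in L + N was 0.67 (SE 0.361, adjusted p = 0.256 in edgeR). HOXB7 was at 23.9, 15.6 and 16.1 FPKM in L − N, 22.0, 19.1 and 20.7 in L + N, 17.9, 20.8 and 19.6 in H − N, and 11.08, 26.7 and 12.4 in H + N. All groups of HOXB7 overlapped, and its log2 fold changes against L − N were between −0.22 and 0.03.

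In the HOXD cluster, HOXD3 and HOXD10 passed the adjusted p in L + N at a log2 fold change under 1, so they were not counted as differentially expressed. HOXD3 was at 3.04, 3.09 and 3.01 FPKM in L − N, 5.54, 5.03 and 6.80 in L + N, 3, 2.75 and 2.29 in H − N, and 4.02, 2.87 and 3.37 in H + N. It was high in L + N alone, where every library exceeded all libraries of the other groups, and the log2 fold change against L − N was 0.80 (SE 0.182, adjusted p = 0.0223 in edgeR). HOXD10 was at 4.82, 4.40 and 5.26 FPKM in L − N, 9.33, 6.91 and 10.1 in L + N, 8.78, 7.23 and 5.54 in H − N, and 5.76, 6.13 and 8.69 in H + N. L − N was below the other groups without overlap, with log2 fold changes of 0.74 in L + N (SE 0.207, adjusted p = 0.0480), 0.51 in H − N (SE 0.207, adjusted p = 0.159) and 0.46 in H + N (SE 0.207, adjusted p = 0.181). Reads of HOXD10 can be shared with HOXD9, which was at 8.04, 7.03 and 9.68 FPKM in L − N, 10.8, 8.03 and 9.75 in L + N, 12.6, 11.2 and 5.47 in H − N, and 7.75, 8.15 and 10.6 in H + N. All groups of HOXD9 overlapped. The adjusted p of HOXD3 in L + N rose to as much as 0.0861 when replicate 2 or 3 of L − N or any library of L + N was left out. That of HOXD10 rose to as much as 0.139, and above 0.05 without any library of either group. Without replicate 1 of L − N, the log2 fold change in L + N was 0.77 for HOXD3 (adjusted p = 0.0403) and 0.71 for HOXD10 (adjusted p = 0.0773).

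HOXD8, the most abundant HOXD gene, was nearly level across the diets. It was at 10.4, 8.97 and 10 FPKM in L − N, 8.87, 9.40 and 9.92 in L + N, 8.82, 9.72 and 8.93 in H − N, and 11.2, 8.22 and 13.5 in H + N. All 4 groups overlapped.

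Read over the 27 tested genes, the share of members with higher FPKM than L − N and no overlap was near that of all genes in H − N and H + N. In H − N, 14.8% were higher (background 15.4%) and 7.41% lower (background 10.4%). In H + N, 18.5% were higher (background 18.3%) and 3.70% lower (background 10%). In L + N, 33.3% were higher (background 24.5%), namely HOXA6, HOXA9, HOXA10, HOXA11, HOXB6, HOXC4, HOXC6, HOXD3 and HOXD10, and HOXA7 alone was lower (background 9.79%).

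The effect of NCG over both diets was the average of L + N with H + N less that of L − N with H − N. HOXA10 was the only one of the 27 genes differentially expressed (background 1.8%, 1.67% for higher levels alone), at 2.11-fold and a log2 fold change of 1.08 (SE 0.181, adjusted p = 0.00836 in edgeR). HOXA9 (log2 fold change 0.80, adjusted p = 0.0333), HOXD3 (0.58, adjusted p = 0.0231) and HOXA6 (0.49, adjusted p = 0.0471) passed the adjusted p with smaller changes. On leaving out a library, the adjusted p exceeded 0.05 in 10 of 12 fits for HOXA6, in 6 of 12 for HOXA9 and in 3 of 12 for HOXD3, among them those without replicate 3 of L − N, replicate 3 of L + N and replicate 1 of H + N for each of these genes. The call of HOXA10 was lost without replicate 3 of L + N (log2 fold change 0.95) and without replicate 1 of H + N (0.998), where it lay under 1. Without replicate 1 of L − N it was kept, at 1.02.

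The effect of fiber over both NCG levels was the average of H − N with H + N less that of L − N with L + N. No HOX gene was differentially expressed (0 of 27, background 0.0261%, by edgeR and by DESeq2), and 3 had an unadjusted p under 0.05 (background 19.5%). HOXD3 had the smallest p among them, at a log2 fold change of −0.47 (SE 0.129, adjusted p = 0.105). HOXA11 came next at 0.78 (SE 0.234, adjusted p = 0.121), and HOXA10 had 0.45 (SE 0.179, adjusted p = 0.202). These values are from edgeR. In DESeq2, HOXD3 (log2 fold change −0.48, adjusted p = 0.0139) and HOXA11 (0.77, adjusted p = 0.0262) passed the adjusted p but not the fold threshold.

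Whether the effect of NCG depended on the diet was tested as an interaction, and 0 of 27 HOX genes passed by edgeR or DESeq2 (background 0.0%), with an unadjusted p under 0.05 for 2 (background 12.8%). These were HOXA10, at −1.04 (SE 0.358, adjusted p = 0.300), and HOXD10, at −0.79 (SE 0.292, adjusted p = 0.320), both with a smaller difference between NCG and no NCG on the high-fiber diet. H + N against H − N also gave 0 of 27 by both tools (background 0.0%), with 2 genes at an unadjusted p under 0.05 (background 8.67%), and HOXA10 at 0.55 (SE 0.253, adjusted p = 0.576). H + N against L + N gave 0 of 27 by both tools (background 0.0%) and 1 gene at an unadjusted p under 0.05 (background 4.68%), which was HOXD3 at −0.69 (SE 0.182, adjusted p = 0.910).

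In some groups, the genes of the front of the HOXA row and HOXA9 to HOXA11 differed between libraries in opposite ways. In L − N, replicate 1 was the highest library for 5 of 5 genes from HOXA2 to HOXA6 and for 6 of 6 HOXB genes from HOXB2 to HOXB8, and the lowest for 3 of 3 of HOXA9, HOXA10 and HOXA11. In H + N, replicate 2 showed the same order, highest for 5 of 5 and 6 of 6 of these genes and lowest for 3 of 3 of HOXA9 to HOXA11. The summed level of HOXA2 to HOXA6 was 48.5 FPKM in that replicate of L − N against 25.6 and 28.8 in the others, and 55.4 in that of H + N against 42.0 and 27.1. HOXA3 shares its span with HOXA4, HOXA5 and HOXA6, so the counts for HOXA2 to HOXA6 are not of fully separate readings. In L + N, replicate 3 was the lowest for 4 of 5 of HOXA2 to HOXA6 and the highest for 3 of 3 of HOXA9 to HOXA11. The order was not seen in all groups or clusters, since in H − N replicate 1 was highest for 4 of 5 of HOXA2 to HOXA6 and also for 3 of 3 of HOXA9 to HOXA11. Of the 4 genes from HOXD8 to HOXD11, replicate 1 of L − N was the highest for 2 and the lowest for 0, and replicate 2 of H + N the lowest for 1. The share of all genes highest or lowest in these libraries was not counted, so these counts have no background beside them. Over all genes, replicate 1 of L − N differed from replicates 2 and 3 by a mean chi-square per gene of 98.6 and 74.7, against 23.2 between replicates 2 and 3.

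Marker sums differed between the same libraries. In L − N, replicate 1 had the highest smooth muscle sum (2759 FPKM) and the highest endothelium sum (325 against 210 and 255 FPKM). In H + N, replicate 2 had the highest endothelium sum (246 against 193 and 197 FPKM), while its smooth muscle sum of 701 FPKM was beside 714 and 721 in the others. Other sums ran opposite ways in these libraries, since stroma was highest in replicate 1 of L − N (8426 FPKM) and lowest in replicate 2 of H + N (8097), and leukocytes were lowest in the former (121) and highest in the latter (194). Their part in the order of the HOX genes was not tested.

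**Figure D4:**
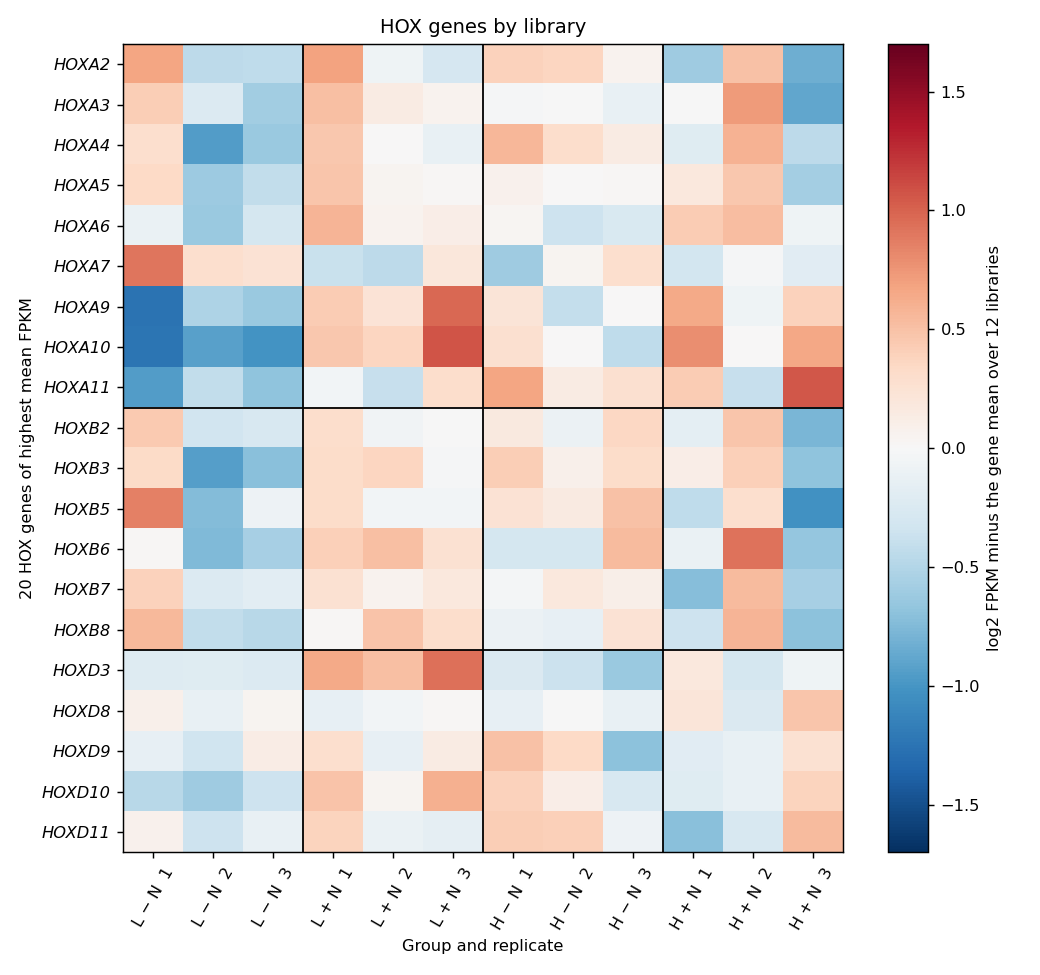
Log2 FPKM minus the gene's mean over the 12 libraries, for the 20 HOX genes of highest mean (vertical) in each library (horizontal, by group and replicate). Replicate 1 of L − N and replicate 2 of H + N are the highest of their groups for the front genes of HOXA and HOXB, and the HOXA9, HOXA10 and HOXA11 cells of the L − N libraries are low.

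Markers also differed between the diets alongside HOXA10. The summed level of the proliferation genes MKI67, TOP2A, CCNB1, CDK1 and AURKB was 9 to 26.0 FPKM in L − N and 31.1 to 35.4 in H − N. With NCG it was 47.9 to 61.6 in H + N and 53.4 to 73.3 in L + N, which overlap. L − N was lowest and H − N next, as for the means of HOXA10. Of these 5 genes, 4 were called higher than in L − N for L + N as well as H + N, and 1 for H − N. The 6 smooth muscle markers summed to 860 to 2759 FPKM in L − N and to 395 to 788 in the other libraries, without overlap. All 6 had negative log2 fold changes in each comparison with L − N, and 2 were called in L + N. The 8 stroma markers summed to 6271 to 8426 FPKM in L − N, with 7608 to 11053 for H − N, 8097 to 10867 for H + N and 7089 to 10620 for L + N, which overlap. Of these markers, 2 were called lower than in L − N for H − N, 1 for H + N and 0 for L + N. The 7 leukocyte markers summed to 121 to 356 FPKM in L − N and 116 to 257 in the other libraries, with 2 called lower in H − N, 1 in H + N and 0 in L + N. The 6 endothelium markers summed to 210 to 325 FPKM in L − N and 163 to 246 elsewhere, with 1 called lower in L + N, and the gland markers to 98.9 to 777 FPKM in L − N and 30.9 to 900 elsewhere. Of 4 gland markers tested, 1 was called higher in each comparison with L − N. The part of these cell types in the difference of HOXA10 was not tested.

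Genes on either side of the HOX clusters were read in the same fit. Of 19 genes within or next to the clusters, 15 were tested, and 0 were differentially expressed in any of the 8 comparisons, where at most 3.99% of all genes were, so that few or none would be called at that share. HIBADH, an enzyme of valine breakdown beyond the tail end of HOXA, had log2 fold changes of −0.10 in L + N and −0.02 in H + N. SKAP2, a signaling adaptor beyond the front end of HOXA, had 0.11 in H − N and 0.01 in H + N. EVX1 and EVX2, homeobox genes beside HOXA13 and HOXD13, had too few counts for the test.

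HOX proteins bind DNA together with the TALE homeodomain proteins of the PBX, MEIS and PKNOX families. All 9 of these cofactors were tested and 0 were differentially expressed in any comparison, beside at most 3.99% of all genes. MEIS1 had log2 fold changes against L − N of 0.58 in L + N (adjusted p = 0.135 in edgeR) and 0.59 in H + N (adjusted p = 0.132). MEIS2 had negative ones, −0.61 in H − N (adjusted p = 0.0298) and −0.46 in H + N (adjusted p = 0.0538).

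Polycomb and trithorax complexes keep HOX clusters off or on. Of 21 such chromatin regulators, all tested, SUZ12, a core subunit of Polycomb repressive complex 2, was differentially expressed in L + N, with a log2 fold change of 1.04 (adjusted p = 0.0124 in edgeR), and 0 were in the other comparisons. This 1 of 21 is near the 3.99% of all genes called in L + N. The call of SUZ12 was lost without replicate 1 or 3 of L − N or replicate 2 of L + N (adjusted p up to 0.0554, and log2 fold change 0.95 without replicate 1 of L − N). Retinoic acid receptors, which switch on front HOX genes in the embryo, had 4 of 5 genes of the table tested and 0 differentially expressed.

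Among 15 tested genes of uterine patterning and implantation, ITGB3, the beta3 integrin subunit that HOXA10 is known to regulate in human endometrium, fell in all 3 comparisons with L − N. Its group means were 9.76 ± 4.31 FPKM in L − N against 4.13 ± 0.487 in L + N, then 2.74 ± 1.04 for H − N and 2.82 ± 0.309 for H + N (SD, n = 3). The log2 fold change was −1.38 in L + N (adjusted p = 0.0331 in edgeR), −1.88 in H − N (adjusted p = 0.0232) and −1.86 in H + N (adjusted p = 0.0193). In the same comparisons the log2 fold change of HOXA10 was positive, opposite to that of ITGB3, and a link between these genes was not tested. The steroid receptors rose in H + N, ESR1 (estrogen) by 1.25 (adjusted p = 0.0161) and PGR (progesterone) by 1.17 on the log2 scale, and the latter lay at the threshold (adjusted p = 0.0500) and was lost under 14 of 17 alternatives. MSX1, a homeobox gene of the receptive endometrium, rose in H − N by 1.40 on the log2 scale (adjusted p = 0.0327). Of the 15 genes, 2 were called higher and 1 lower in H + N (3.58% of all genes in either direction). In H − N, 1 was called higher and 1 lower (2.91% of all genes), and in L + N 1 was called lower (3.99% of all genes). Leaving out a library ended these calls as well. ESR1 was lost without replicate 3 of L − N or replicate 1 of H + N (adjusted p up to 0.0801 in edgeR), and ITGB3 without replicate 3 of L − N in each comparison, among other libraries of the groups compared (adjusted p up to 0.108). MSX1 held under 7 of 17 alternatives (adjusted p up to 0.146). Without replicate 1 of L − N the log2 fold changes of ITGB3 were −1.67 in L + N, then −2.17 for H − N and −2.15 for H + N, that of ESR1 was 1.37, that of MSX1 1.99 (adjusted p = 0.000229) and that of PGR 1.03 (adjusted p = 0.0914). IGFBP1, a decidual protein of primates, was at 0 FPKM.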

How the data were processed

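Endometrial poly(A) RNA of 12 sows was analysed, 3 libraries per group, assigned by their deposited titles. According to the submitters' processing notes, reads were trimmed with fastp 0.22.0, aligned with HISAT2 2.1.0 and counted with HTSeq 0.9.1 on Sscrofa11.1. The paper describes strand-specific libraries, and the strand setting of the counting is not given in the sources used here. The authors deposited raw read counts per gene and FPKM values, in which counts are divided by gene length and library total, which a recalculation matched within 1.91e-05 percent. Coordinates and lengths are those of the deposited table, and all 36 HOX genes had the same coordinates in the RefSeq table of the pig. The family members HOXB4, HOXB9 and HOXD4 were not analysed here.

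Counts were tested in R 4.3.3 with edgeR 4.0.16 (filterByExpr, 15351 genes, TMM scaling, quasi-likelihood test, 1 mean per group over all 12 libraries, residual df of 8), with Benjamini-Hochberg adjustment over all genes within each of 8 comparisons. A gene was called at an adjusted p under 0.05 and an absolute log2 fold change above 1, the thresholds of the study. The standard error was taken from the fold change and the F statistic. The method was tested on simulated data with known changes. FPKM served for levels, which are comparable between genes per length, and a mean of at least 1 FPKM counted as expressed. Alternatives were DESeq2 1.42.0, its size factors in edgeR, no filter, no fold threshold, the replicate number as a block, only the 6 libraries compared, and leaving out each library.

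Values in every library are given for HOXA10 and HOXA11, the 2 highest members of each cluster, members called, and the 2 smallest p of fiber, NCG, the interaction and each comparison with L − N. A few genes are not reported here by name and enter only the counts and sums. Members under 10 counts in every library are only named. Of the other lists, MEIS1, MEIS2, PGR, ESR1 and the genes called are named. The neighbours HIBADH, SKAP2, EVX1 and EVX2, the HOXA genes 5 to 7 and IGFBP1 were named after their values were seen. The members and lists were chosen with earlier results of these data known. The biological coefficient of variation was 0.269. Pairs of replicates differed by a mean chi-square per gene of 22.8 to 98.6, so on average over genes the spread between sows exceeded the error of counting. For members of few counts, such as HOXC10 at 2 to 17 counts in a library, depth limits the precision as well.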

Additional observations from a re-analysis of the deposited data

How the results depend on the processing

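The number of HOX genes called moved in 4 of the 8 comparisons. In L + N against L − N it was 2, 4 with no threshold on the fold change, and 1 to 2 when a library was left out. In H + N against L − N it was 2, 1 with only the 6 libraries of both groups, and 0 to 3 when a library was left out (0 without replicate 3 of L − N or replicate 1 of H + N, and 3, with HOXA11, without replicate 2 of H + N). For NCG it was 1, 4 with no threshold on the fold change, and 0 to 1 when a library was left out. In H − N against L − N it was 0, and 0 to 1 when a library was left out (HOXB3 without replicate 1 of L − N). The other 4 comparisons stayed at 0, and no result reversed. The cause of these shifts was not tested beyond the smaller number of libraries in such fits.

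With the replicate number as a block, H + N against L − N gave 1 HOX gene in place of 2, HOXA10, while HOXA9 was at an adjusted p of 0.0586 in edgeR. The numbers name different sows: over 18 comparisons of libraries with the same number, deviations correlated between −0.32 and 0.28, 3 of them above 0.1, and 3 of 12 libraries correlated best with their own number, so no pairing was used. DESeq2 called 3 HOX genes in H + N against L − N. Of the single-gene results, 388 kept their side of the threshold under an alternative, 61 lost it and 2 gained it, all with the same direction. Over 17 alternatives, the log2 fold change of HOXA10 in L + N was 1.35 to 1.72 (adjusted p = 5.21e-07 to 0.0442), and it was called in all 17. In H + N it was called in 15 of 17. Another scaling moved the median of all genes by at most 0.018 on the log2 scale. The alternatives for ITGB3, ESR1, PGR, MSX1 and SUZ12 were chosen after seeing the data. ITGB3 was called under 12 of 17 alternatives in L + N, then 13 for H + N and 12 for H − N. The number of HOX genes with a mean of at least 1 FPKM was 21, 25 at a limit of 0.5 FPKM and 19 at 2 FPKM. With 3 libraries per group, changes under the fold threshold have wide errors.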
